A study of Mus musculus with 72 samples.

Results

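Genes of brown and white adipocytes were examined in RNA-seq libraries of dissected mouse hearts, where some of the libraries labelled right or left atrium held high levels of *Ucp1*. The 9 genes, of 24237 in the deposited table, were the brown adipocyte genes *Ucp1*, *Cidea*, *Elovl3* and *Dio2* and the white adipocyte genes *Adipoq*, *Plin1*, *Cfd*, *Lep* and *Retn*. They were chosen by their levels and their correlation with *Ucp1* across the same 72 libraries, so their levels, their rise and fall together and their distribution over heart compartments are given as a description, with no test. All mice were C57BL/6J, in 4 groups: naïve *Ahr*+/+ mice whose dams received corn oil, *Ahr*-/- mice of untreated dams, and *Ahr*+/+ mice exposed in utero to 0.1 (low dose) or 1 (high dose) μg/kg TCDD that their dams were gavaged with on 3 gestational days. TCDD is the prototypical ligand of the aryl hydrocarbon receptor, AHR. Hearts were taken at about 10 months of age according to the methods (the sample labels give 9 months), and right atrium (RA), left atrium (LA) and ventricles (V) of 3 mice per sex and group gave 72 libraries in 24 groups of 3. The labels call the material cardiomyocytes, although whole pieces of dissected tissue were extracted. The germline *Ahr* deletion affects every cell, and dissected atria hold whatever fat, vessel or neighbouring tissue was left on them.

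Brown adipocytes burn fat for heat. UCP1, a protein of the inner mitochondrial membrane found almost only in these cells and in beige adipocytes, lets protons return to the matrix without ATP synthesis, and it is switched on through β-adrenergic receptors. CIDEA sits on lipid droplets, ELOVL3 elongates very long fatty acids in brown fat and in skin glands, and DIO2 turns thyroxine into the active hormone triiodothyronine. White adipocytes store lipid and secrete hormones. PLIN1 coats their lipid droplet, and adiponectin (*Adipoq*), leptin (*Lep*), resistin (*Retn*) and the complement protease adipsin (*Cfd*) are their secreted products. Brown adipocytes express *Adipoq*, *Plin1* and *Cfd* as well, so these are genes of adipocytes in general rather than of white fat alone. Fat lies on the outside of the heart along the atrioventricular groove, around the great vessels and near the thymus.

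The 250 bases upstream of the annotated start were taken from a table of RefSeq promoters (GRCm38.p6), in which 7 of the 9 genes were matched. Those of *Ucp1*, *Dio2*, *Lep* and *Adipoq* are shown because 2 brown and 2 white genes that rose together in these libraries can be set side by side. Capitals mark matches on either strand to the motifs TGACGTCA (the cAMP response element), TTGCGCAA (a C/EBP palindrome), AGGTCA (a nuclear receptor half-site) and TATAAA. The *Ucp1* stretch is chr8:83290098-83290347 (+ strand), that of *Dio2* chr12:90739039-90739288 (- strand), that of *Lep* chr6:29059971-29060220 (+ strand) and that of *Adipoq* chr16:23146286-23146535 (+ strand).
Ucp1: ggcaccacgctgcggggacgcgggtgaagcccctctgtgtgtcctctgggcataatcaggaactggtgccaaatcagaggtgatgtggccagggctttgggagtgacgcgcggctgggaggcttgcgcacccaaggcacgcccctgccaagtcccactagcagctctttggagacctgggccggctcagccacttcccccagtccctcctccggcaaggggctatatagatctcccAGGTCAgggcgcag
Dio2: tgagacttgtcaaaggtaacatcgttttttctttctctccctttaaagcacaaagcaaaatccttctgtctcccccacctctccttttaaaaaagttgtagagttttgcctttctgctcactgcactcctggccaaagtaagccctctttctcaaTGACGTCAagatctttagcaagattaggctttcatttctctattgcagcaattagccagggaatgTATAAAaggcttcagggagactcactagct
Lep: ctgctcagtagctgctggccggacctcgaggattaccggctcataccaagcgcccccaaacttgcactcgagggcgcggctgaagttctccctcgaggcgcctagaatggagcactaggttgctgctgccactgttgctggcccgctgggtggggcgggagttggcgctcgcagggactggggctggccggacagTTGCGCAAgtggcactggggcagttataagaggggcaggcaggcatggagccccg
Adipoq: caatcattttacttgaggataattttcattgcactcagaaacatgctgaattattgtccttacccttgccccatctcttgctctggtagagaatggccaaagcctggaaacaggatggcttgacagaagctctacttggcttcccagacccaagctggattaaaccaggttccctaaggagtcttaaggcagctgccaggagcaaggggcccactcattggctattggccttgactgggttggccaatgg
The AGGTCA match of *Ucp1* begins at base 237 of its window. The cAMP response element of *Dio2* begins at base 156 and its TATAAA at base 221. The C/EBP palindrome of *Lep* begins at base 196, and *Adipoq* had no match to any of the 4 motifs. Among the same windows of 32851 promoters, TGACGTCA was found in 1.55%, TTGCGCAA in 0.164%, AGGTCA in 14.0% and TATAAA in 12.4%. A match is a description of letters and not a measured site of binding. No single motif of the 4 was shared by these windows.

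The libraries held 11873417 to 28789382 counts on genes with a median of 19231739. Levels are given as CPM, a gene's counts scaled by the total of its library. A count of 0 allows up to 3 counts, or 0.104 to 0.253 CPM depending on the library, from counting error only. *Ahr* itself was read at 8.59 to 30.8 CPM in naïve, 2.00 to 9.23 in *Ahr*-/-, 4.68 to 20.1 in high-dose and 6.67 to 20.1 in low-dose libraries. *Myl4* or sex-linked genes went against the label in 19 libraries. Sex-linked genes read male in 4 libraries labelled female RA (numbers 50, 56, 62 and 68) and female in 4 labelled male V (53, 59, 65 and 71). The atrial myosin light chain *Myl4* was under 100 CPM in 8 libraries labelled atrium (4, 11, 23, 24, 51, 57, 63 and 69) and over 100 CPM in 7 labelled V (35, 45, 46, 53, 59, 65 and 71). Values are given by label, and the main ones that rest on such libraries are also given without them. Markers other than *Myl4* and the sex-linked genes did not enter this reading of the labels. A library that matched its label by this reading can still go against it by another marker. Every library with sex-linked genes against its label, and libraries 51, 57, 63 and 69, were numbered 49 to 72. In that range the RA gene *Bmp10* was at 87.6, 512, 1134 and 0.586 CPM in libraries 52, 58, 64 and 70. These 4, labelled female LA, were kept as matching their label. What this numbering reflects was not tested. The 3 compartments came from the same hearts, but the labels do not say which libraries share a heart.

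*Ucp1* (Entrez 22227; chromosome 8, 83290352 to 83298452, + strand of GRCm38 in GENCODE, like all positions of genes here) was either at or near 0 or abundant. It was at 0 in 29 of 72 libraries and at 3 counts or fewer in 42. It was at 1 CPM or more in 21 libraries, at 10 or more in 19, at 50 or more in 15 and at 100 or more in 9, with a highest value of 610.3 CPM. Only 2 libraries lay between 1 and 10 CPM. Of the 19 libraries with 10 CPM or more, 7 were labelled RA, 9 LA and 3 V. *Bmp10*, a gene of the RA, was at 690 and 1134 CPM in libraries 31 and 64, labelled LA. It was at 1.45, 0.767, 0.576 and 0.742 CPM in libraries 13, 15, 50 and 56, labelled RA. In libraries 7, 8 and 55, also labelled RA, it was at 447, 605 and 61.9 CPM. What such libraries add to the split between RA and LA was not tested. All 3 labelled V were among those with *Myl4* and sex-linked genes against their label.

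**Figure D1:**
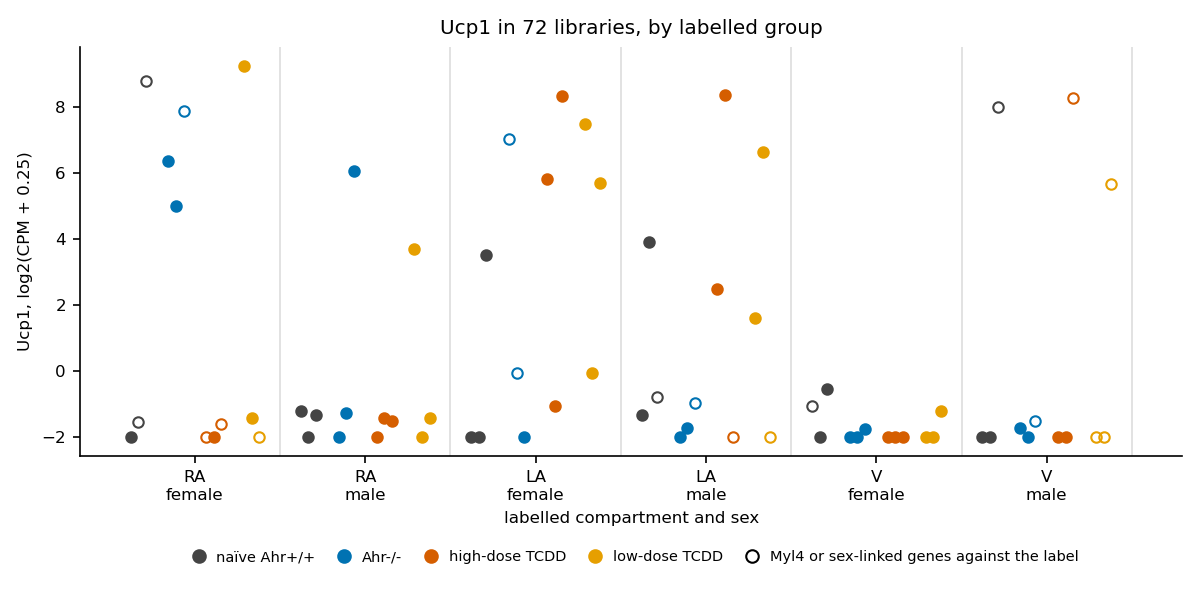
*Ucp1* as log2(CPM + 0.25) in each of the 72 libraries, by labelled compartment, sex and group; open points are libraries whose *Myl4* or sex-linked genes go against the label and filled points all others. The libraries fall into a low band near -2 and a scatter of high values up to 610.3 CPM, and every high point labelled V is open.

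In the female RA, *Ucp1* was read at 0, 0.0944 and 443 CPM in naïve, at 31.8, 81.5 and 236 in *Ahr*-/-, at 0, 0 and 0.0819 in high-dose and at 0, 0.125 and 610.3 in low-dose libraries. *Ahr*-/- females were the only one of the 24 groups with all 3 libraries at 10 CPM or more. The naïve and low-dose groups each held 1 high library, number 50 and number 15, so that their ranges enclosed all 3 *Ahr*-/- values. Library 50 and the highest *Ahr*-/- library, number 56, both read male by their sex-linked genes.

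In the male RA, the values were 0, 0.146 and 0.179 CPM in naïve, 0, 0.166 and 65.9 in *Ahr*-/-, 0, 0.0974 and 0.122 in high-dose and 0, 0.122 and 12.6 in low-dose libraries. Only 2 of these 12 libraries, number 55 (*Ahr*-/-) and number 13 (low dose), rose above the level of 3 or 4 counts, and the groups overlapped at 0.

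In females of the LA *Ucp1* was read at 0, 0 and 11.1 CPM in naïve, at 0, 0.718 and 131 in *Ahr*-/-, at 0.227, 55.8 and 322 in high-dose and at 0.711, 51.1 and 178 in low-dose libraries. In males it was read at 0.149, 0.325 and 14.7 CPM in naïve, at 0, 0.0548 and 0.265 in *Ahr*-/-, at 0, 5.40 and 327 in high-dose and at 0, 2.78 and 99.5 in low-dose libraries. In both sexes every TCDD-exposed group held a library above the highest naïve value, and every one of them also held a library below it. The *Ahr*-/- female library at 131 CPM, number 23, had *Myl4* at 48.7 CPM and was the single library under 100 CPM of *Myl4* with more than 10 CPM of *Ucp1*, out of 25.

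In the V, the 17 libraries that matched their label had *Ucp1* at 0 to 0.441 CPM, and 13 of them were at 0. The 3 high libraries were number 53 (naïve, 256 CPM), number 65 (high dose, 307 CPM) and number 71 (low dose, 51.0 CPM). All were labelled male, read female and had *Myl4* at 1378, 1469 and 3533 CPM. Over all labels, 18 of 47 libraries with *Myl4* at 100 CPM or more had *Ucp1* at 10 CPM or more.

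Of the 24 groups, 9 had no library at 10 CPM or more of *Ucp1*, 12 had 1, 2 had 2 and 1 had all 3. For a gene of this kind, 1 library sets the group mean: the low-dose female RA had a mean of 203 ± 352 CPM (SD, n = 3) from a median of 0.125 CPM. In RNA of whole tissue, fewer adipocytes and less *Ucp1* RNA per adipocyte cannot be told apart.

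*Cidea* (Entrez 12683) and *Dio2* (Entrez 13371; chromosome 12, 90724552 to 90738438, - strand) differed from *Ucp1* in having a level in every library. In the 23 libraries with *Ucp1* at 3 counts or fewer and *Adipoq* under 1 CPM, *Cidea* ranged from 1.57 to 15.8 CPM (median 6.94). In the 15 libraries with 50 CPM or more of *Ucp1* it ranged from 9.66 to 98.1 CPM (median 43.2), so that the classes overlapped at their edges. Its highest level, 98.1 CPM, was in library 15, which also had the highest *Ucp1*. The gene overlaps *B430212C06Rik* on the opposite strand, and reads of both cannot be told apart if the counting ignored strand, which is not given in the sources used here.

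*Dio2* ranged from 0.296 to 4.71 CPM (median 0.977) in the same 23 libraries and from 5.05 to 51.1 CPM (median 18.4) in the 15. These 2 ranges did not overlap, but over all 51 libraries with *Ucp1* under 1 CPM *Dio2* reached 7.79 CPM, which overlaps the range in the 15. In the 9 of the 15 that matched their label the median was 13.8 CPM. Library 56 (*Ahr*-/-, 51.1 CPM) and library 50 (naïve, 43.3 CPM), both labelled female RA, had the highest values. In libraries labelled LA, *Dio2* had a median of 5.12 CPM, against 2.68 in RA and 1.12 in V.

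*Elovl3* (Entrez 12686; chromosome 19, 46131897 to 46135694, + strand) was the scarcest brown gene. It was at 0 in 33 libraries, and its median was 1.19 CPM where *Ucp1* was at 50 CPM or more, 1 of those 15 libraries being at 0, and 0.831 CPM in the 9 of them that matched their label. The 4 highest values were 7.20 CPM in library 56 and 5.91 in library 7, both *Ahr*-/- and labelled female RA, 4.58 in library 23 (*Ahr*-/-, labelled female LA) and 4.00 in library 64 (high dose, labelled female LA). Library 15, with the most *Ucp1*, had 0.831 CPM of *Elovl3*. The gene's end overlaps *Pitx3*, which lies on the other strand.

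The white adipocyte genes were more widespread than *Ucp1*. *Adipoq* (Entrez 11450; chromosome 16, 23146536 to 23158028, + strand) was at 10 CPM or more in 27 libraries, among them all 19 with *Ucp1* at 10 CPM or more, where its lowest value was 17.5 CPM. The other way round, 7 libraries with *Adipoq* at 10 CPM or more had *Ucp1* under 1 CPM, and in 6 of them *Ucp1* was at 3 counts or fewer. These 7 were libraries 12, 21, 22, 24, 28, 58 and 59, of which 5 were *Ahr*-/- and 2 high dose, and 24 and 59 went against their label. Their *Adipoq* reached at most 31.7 CPM, while 13 of the 15 libraries with *Ucp1* at 50 CPM or more exceeded that value.

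**Figure D2:**
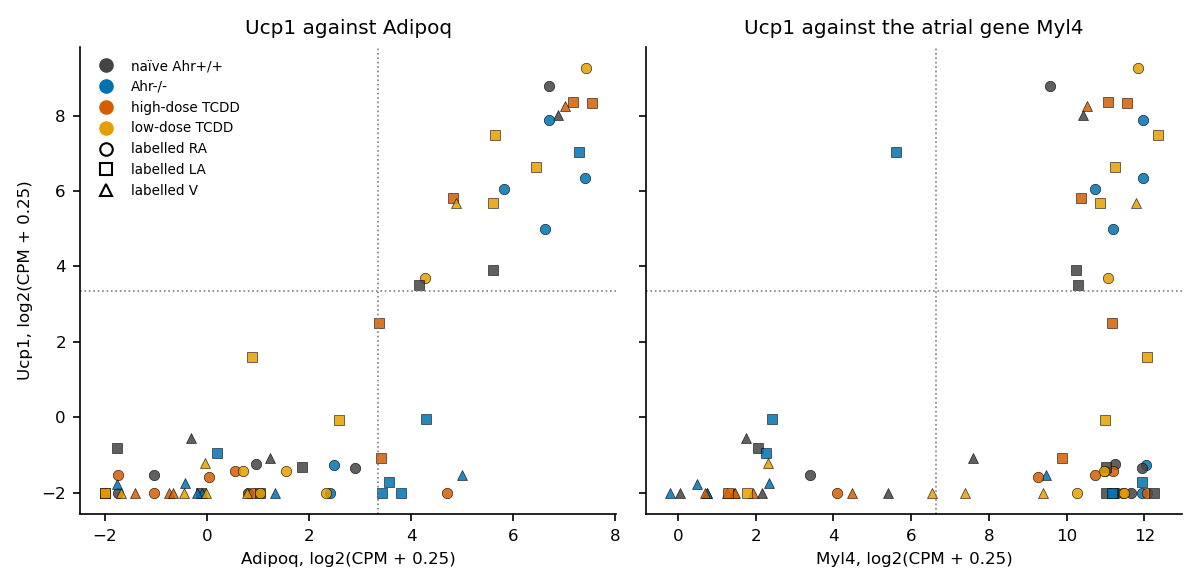
*Ucp1* against *Adipoq* (left) and against the atrial gene *Myl4* (right), both axes as log2(CPM + 0.25), 1 point per library, colour for the group and shape for the labelled compartment; dotted lines mark 10 CPM of *Ucp1* and *Adipoq* and 100 CPM of *Myl4*. No library had *Ucp1* above 10 CPM with *Adipoq* below it, 7 libraries had *Adipoq* above 10 CPM with *Ucp1* under 1 CPM, and 18 of the 19 high libraries lie right of the *Myl4* line.

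The other white adipocyte genes are *Plin1* (chromosome 7, 79720218 to 79732903, - strand), *Cfd* (chromosome 10, 79890853 to 79892655), *Lep* (chromosome 6, 29060220 to 29073877) and *Retn* (chromosome 8, 3655770 to 3660110), and they were present in those 7 libraries as well. *Plin1* had a median of 8.40 CPM, *Cfd* of 68.3, *Lep* of 1.72 and *Retn* of 3.71. The lowest of these values lay above the highest of the 23 libraries with neither *Ucp1* nor *Adipoq* for each of the 4 genes. The classes were set by *Ucp1* and *Adipoq*, and these genes follow *Adipoq* across libraries, so that this gap is a description and no support. *Cidea*, at a median of 6.27 CPM, and *Elovl3*, at 0.0548, were at the level of those 23 libraries, and *Dio2* had a median of 5.08. The 7 libraries held genes of adipocytes with little or none of the brown marker. Without the libraries against their label, the classes with neither gene, with *Adipoq* alone and with *Ucp1* at 50 CPM or more held 16, 5 and 9 libraries, with medians of 6.53, 6.27 and 26.1 CPM for *Cidea* and of 0.452, 48.2 and 271 CPM for *Cfd*.

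**Figure D3:**
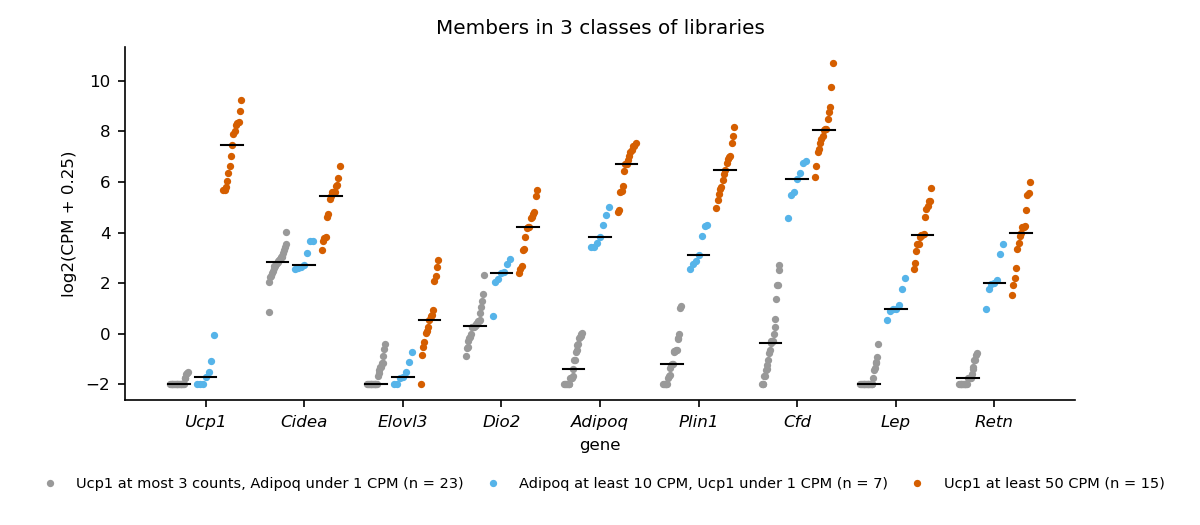
The 9 genes as log2(CPM + 0.25) in 3 classes of libraries, 1 point per library and a bar at the median: 23 with *Ucp1* at 3 counts or fewer and *Adipoq* under 1 CPM, 7 with *Adipoq* at 10 CPM or more and *Ucp1* under 1 CPM, and 15 with *Ucp1* at 50 CPM or more. *Cidea* has the same level in the first 2 classes, while *Adipoq*, *Plin1*, *Cfd*, *Lep* and *Retn* rise in 2 steps; the classes were set by *Ucp1* and *Adipoq*, so this is a description.

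Per kilobase of coding sequence, *Cfd* had the highest level of the 9 genes in the 15 libraries rich in *Ucp1*, with a median of 338 CPM per kb. *Ucp1* followed with 193, *Adipoq* with 141, *Cidea* with 66.3, *Plin1* with 56.9, *Retn* with 45.7, *Lep* with 29.1, *Dio2* with 23.1 and *Elovl3* with 1.41 CPM per kb. This order depended on the 6 libraries that went against their label. In the other 9 *Cfd* was again first with 349 CPM per kb, but *Adipoq* (117) stood above *Ucp1* (108), and *Retn* (45.7) and *Plin1* (43.5) above *Cidea* (40.0), followed by *Lep* (29.8), *Dio2* (17.3) and *Elovl3* (0.980). In CPM the median of *Ucp1* fell from 178 to 99.5 and that of *Cidea* from 43.2 to 26.1 without these 6. *Cfd* reached 1666 CPM in library 7, the highest level of any of the 9 genes in any library, where *Ucp1* stood at 81.5 CPM. *Lep* ranged from 5.64 to 54.2 CPM and *Retn* from 2.65 to 64.5 CPM in these 15 libraries. The lowest *Plin1* among them was 31.1 CPM and the highest 285 CPM.

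**Figure D4:**
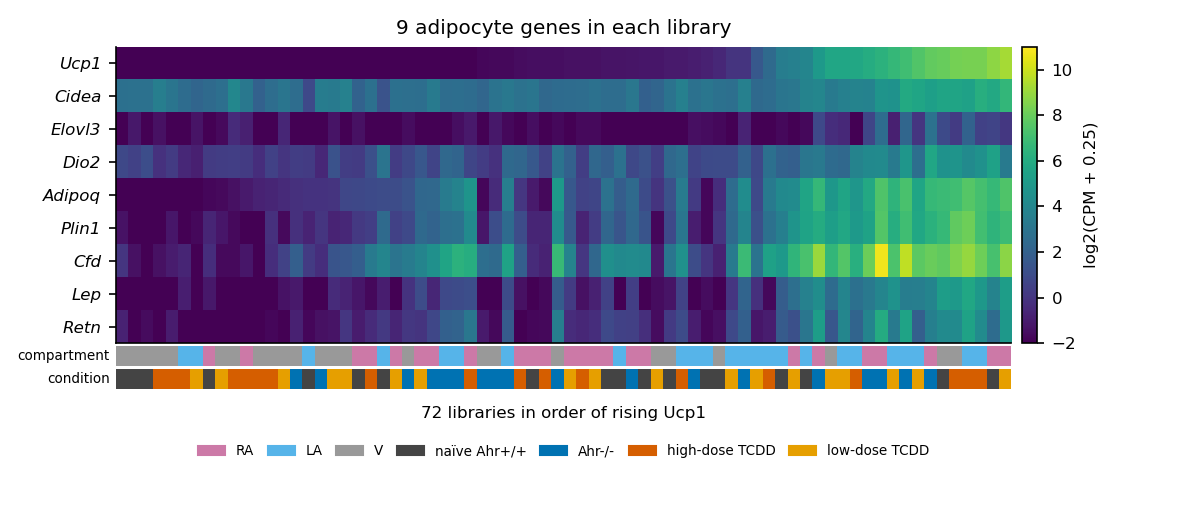
Level of the 9 genes, as log2(CPM + 0.25), in 72 libraries ordered by rising *Ucp1* from left to right (libraries with *Ucp1* at 0 by *Adipoq*), with the labelled compartment and the group of each library below. The 5 lower genes turn bright together, also in some libraries without *Ucp1*, and *Cidea* has a level in every library.

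Across the 48 libraries labelled atrium, Spearman's rho with *Ucp1* was 0.75 for *Cidea*, *Dio2*, *Plin1* and *Adipoq*, 0.73 for *Cfd*, 0.70 for *Lep*, 0.68 for *Retn* and 0.57 for *Elovl3*. Pearson's r on log2(CPM + 0.25) was between 0.76 and 0.88. Without the 2 libraries with *Ucp1* farthest from its median, rho was 0.51 to 0.72. Over the libraries of all compartments that matched their label it was 0.40 to 0.72. The 5 white adipocyte genes followed each other more closely than they followed *Ucp1*, with rho from 0.88 to 0.98. Within the 4 groups (12 atrium-labelled libraries each), rho with *Ucp1* was 0.40 to 0.83 in naïve, 0.67 to 0.92 in *Ahr*-/-, 0.26 to 0.84 in high-dose and 0.68 to 0.83 in low-dose libraries. The points share hearts between RA and LA, and no p is given, since this correlation chose the genes.

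The genes most like *Ucp1* over the same 48 libraries, among 14409 genes with 1 CPM or more in at least 12 of them, were *Otop1* (rho = 0.82), a proton channel of brown fat, and *Pck1* (0.78), the PEP carboxykinase that makes glycerol for triglycerides. *Acsm3*, *Cdo1*, *Clstn3*, *Adtrp*, *Trarg1*, *Amy1*, *Klhdc7a* and *Slc24a3* followed with rho from 0.77 to 0.75. *Trarg1* encodes a regulator of the insulin-responsive glucose transporter of fat and muscle. The median rho of all genes was 0.05, and 45 genes other than the members had a rho of 0.7 or more. *Otop1* was read at 4.96 to 48.8 CPM where *Ucp1* was at 50 CPM or more, and at 0 to 1.17 CPM where *Ucp1* was under 1 CPM, so that these ranges did not overlap.

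Other genes of the thermogenic programme differed in how far they followed *Ucp1*. *Adrb3*, the β3-adrenergic receptor of adipocytes, was at 4.05 to 58.6 CPM in the 15 libraries rich in *Ucp1* and at 0 to 4.80 CPM in the 51 with *Ucp1* under 1 CPM. *Slc27a2*, a fatty acid transporter, was at 2.61 to 51.0 CPM and at 0 to 5.41 CPM in these classes. *Ppargc1a*, the coactivator of mitochondrial biogenesis, was at 106 to 250 CPM in the first class and at 116 to 469 CPM in the second, and *Cox8b* and *Cox7a1*, subunits of cytochrome c oxidase of muscle and brown fat, overlapped in the same way. *Prdm16* and *Ebf2*, regulators of brown fat identity, were present in all libraries, at 3.37 to 24.3 and 4.93 to 30.2 CPM. *Zic1* and *Lhx8*, which mark classical brown fat of the back, reached no more than 1.15 and 1.72 CPM. *Lhx8* had a median of 0.372 CPM in the 15 libraries against 0 in the 51 and a rho of 0.41 with *Ucp1*, and *Zic1* had medians of 0.218 and 0.180 CPM and a rho of 0.14. Of these 15 thermogenic genes 3 had a rho of 0.5 or more. All 7 genes of beige fat or body position were scarce, and their rho ran from -0.22 to 0.35. *Hoxc9* was at 0 in 70 libraries, whereas *Tbx15* was above 0 in all 72 (0.132 to 4.60 CPM), *Cited1* reached 4.79 CPM, and *Tmem26*, with the rho of 0.35, was at 0.128 to 2.07 CPM in the 15 libraries and at 0 to 1.08 CPM in the 51.

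Of 26 genes of lipid droplets and lipid synthesis, 18 had a rho of 0.5 or more with *Ucp1* and 8 a lower one. *Fasn*, fatty acid synthase, was at 233 to 4501 CPM in the 15 libraries and at 18.0 to 218 CPM in the 51. *Scd1*, stearoyl-CoA desaturase, was at 365 to 10519 and at 11.3 to 653 CPM, and *Cidec*, a lipid droplet protein, was at 18.9 to 305 and at 0 to 43.9 CPM. *Pparg* and *Cebpa*, the transcription factors of adipocyte formation, had medians of 36.5 and 63.6 CPM against 10.9 and 6.45, or 31.0 and 63.6 against 10.6 and 7.51 without the libraries against their label. Lipoprotein lipase, *Lpl*, had a lower median in the 15 libraries (5901 against 7530 CPM, rho 0.03), as did *Plin5*, a lipid droplet protein of oxidative tissue (45.9 against 80.5 CPM, rho -0.03). *Plin4* and *Fabp5* had rho of 0.08 and 0.10. Of the receptors for the hormones, *Adipor2* had a median of 200 CPM against 129 (199.9 against 130.0 without the libraries against their label), with a rho of 0.62 with *Ucp1*, while *Adipor1* (205 against 222 CPM) and the leptin receptor *Lepr* (11.1 against 8.89 CPM) had rho of -0.09 and 0.15.

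Markers of other tissues were high in some of the same libraries. The summed level of 6 lung genes was under 10 CPM in 65 libraries and reached 8403 CPM in library 15, which had the most *Ucp1*, and 3976 CPM in library 21, in which *Ucp1* was at 0. In both, nearly all of it was *Scgb1a1* and *Scgb3a2*, secretory genes of airway club cells, whereas *Sftpc*, the defining gene of alveolar type II cells, was at 0.767 CPM or less in every library and at 0 in 69. The 6 genes of thymus and T cells summed to 512 CPM in library 64 and to 80.6 CPM in library 26, with *Ucp1* at 322 and 327 CPM, and to at most 50 CPM elsewhere. Smooth muscle genes (4 genes) summed to 213 to 3868 CPM in the 15 libraries rich in *Ucp1* and to 61.2 to 1266 in the 51 under 1 CPM. Mesothelial genes (5 genes) summed to 87.6 to 481 CPM and to 4.94 to 282 CPM in these classes. Their part in the levels of *Ucp1* was not tested.

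Levels per *Adipoq* were compared over the 27 libraries with *Adipoq* at 10 CPM or more, 4 naïve, 10 *Ahr*-/-, 7 high dose and 6 low dose. These are ratios of CPM and a description, since libraries of 1 heart and of 3 compartments are pooled and the choice was made after the values were seen. *Cfd* per *Adipoq* had a median of 5.02 in *Ahr*-/- (range 2.51 to 9.86), against 1.84 in naïve (1.41 to 3.18), 2.63 in high-dose (1.90 to 4.28) and 3.59 in low-dose libraries (1.83 to 4.70). The naïve and *Ahr*-/- ranges overlapped between 2.51 and 3.18. *Retn* per *Adipoq* had a median of 0.299 in *Ahr*-/- and of 0.165, 0.156 and 0.110 in naïve, high-dose and low-dose libraries. *Lep* per *Adipoq* was lowest in the median of *Ahr*-/- (0.142), against 0.228, 0.206 and 0.255 in the same order.

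*Ucp1* per *Adipoq* ranged from 0 to 4.28. Its median was 0.179 in *Ahr*-/- and 1.40, 1.72 and 1.44 in naïve, high-dose and low-dose libraries, with ranges that overlapped throughout. Of the libraries with *Adipoq* at 10 CPM or more, *Ucp1* was under 10 CPM in 5 of 10 *Ahr*-/- and 3 of 7 high-dose libraries and in 0 of 4 naïve and 0 of 6 low-dose libraries. Without the libraries against their label, the median of *Ucp1* per *Adipoq* was 0.163 in *Ahr*-/- (n = 6), 0.468 in naïve (n = 2), 1.13 in high-dose (n = 6) and 1.14 in low-dose libraries (n = 5), so that the naïve value no longer lay near those of the exposed groups. That of *Cfd* per *Adipoq* was 5.02, 2.48, 2.63 and 3.84 in the same order. The medians of *Retn* per *Adipoq* were then 0.323 in *Ahr*-/- and 0.175, 0.162 and 0.113 in naïve, high-dose and low-dose libraries, and those of *Lep* per *Adipoq* 0.149 and 0.228, 0.161 and 0.280. *Plin1* was the member most nearly in proportion to *Adipoq*, with ratios from 0.484 to 1.77.

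**Figure D5:**
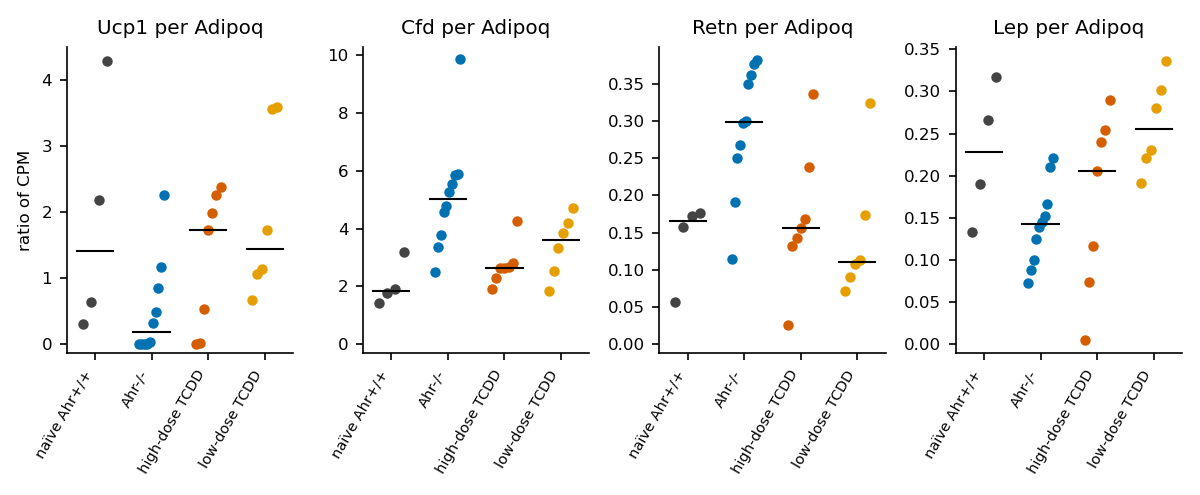
Ratio of the CPM of *Ucp1*, *Cfd*, *Retn* and *Lep* to that of *Adipoq* in the 27 libraries with *Adipoq* at 10 CPM or more, 1 point per library and a bar at the median (4 naïve, 10 *Ahr*-/-, 7 high dose, 6 low dose). *Ahr*-/- libraries have the highest medians of *Cfd* (5.02) and *Retn* (0.299) per *Adipoq* and the lowest of *Lep* (0.142) and *Ucp1* (0.179), with ranges that overlap those of other groups.

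To ask whether loss of *Ahr* or exposure to TCDD changed these genes, 3 libraries of each such group were set against the 3 naïve ones of the same sex and compartment. All genes were fitted together with the quasi-likelihood method of edgeR, and p was adjusted over all of them (Benjamini-Hochberg). None of the members passed an adjusted p of 0.05 in the 12 atrial or the 6 ventricular comparisons, and the 3 comparisons that share a naïve group share its error. After the filter on low counts, 3 to 9 members were tested in each comparison, and *Ucp1* passed it in 6 atrial comparisons and in 0 ventricular ones. A gene that passes only through the group where it is high had to differ, so that counts over tested members are no support. In the 12 atrial comparisons 0.0% of all genes passed as well. In the V the shares were 23.7% in high-dose females, 0.0216% in *Ahr*-/- females and 0.0% in the other 4.

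In the female RA of *Ahr*-/- mice the log2 fold change of *Ucp1* was -0.50 (standard error 2.56, adjusted p = 0.977 in edgeR) and that of *Adipoq* was 1.63 (standard error 1.87, adjusted p = 0.867). Before adjustment 2 of 9 members were under 0.05, beside 5.51% of all genes. These were *Elovl3*, at 1.59, 5.91 and 7.20 CPM against 0.0944, 0.125 and 1.36 (log2 fold change 3.05, adjusted p = 0.817), and *Retn*, at 11.9, 37.3 and 64.5 CPM against 0.0472 to 5.87 (3.99, adjusted p = 0.817). The groups did not overlap for these genes, nor for *Cfd* (262 to 1666 CPM against 0.519 to 146) and *Lep* (14.5 to 20.8 CPM against 0 to 13.7), 4 of 9 members beside 10.7% of all genes. This comparison turned on the naïve library 50. Without it the naïve libraries 3 and 4 were left, and library 4 had *Myl4* under 100 CPM. In this fit 4 of 9 members were called by edgeR, beside 0.301% of all genes. These were *Plin1*, *Adipoq*, *Lep* and *Retn*, with log2 fold changes of 7.39, 7.17, 7.48 and 7.94 and adjusted p from 0.00870 to 0.0353, and *Ucp1* was at 10.88 with an adjusted p of 0.0931. Without all libraries against their label 7 of 9 members were called beside 0.471% of all genes, but this fit had 2 *Ahr*-/- libraries and a single naïve one, which is assumed to vary like the others. With libraries 1 to 48 only, 2 against 2 with the naïve libraries 3 and 4 again, 5 of 9 were called beside 0.349% of all genes. The 2 fits put *Ucp1* at 13.20 and 9.73 (the latter with an edgeR adjusted p of 0.0127). Like the 10.88 without library 50, these values depend on the prior count, because *Ucp1* was at 0 to 2 counts in the naïve libraries kept.

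In the RA of the other groups 0 or 1 member was under an unadjusted p of 0.05, although the median log2 fold change of the members tested ran from -2.19 in high-dose females to 2.87 in *Ahr*-/- males. In high-dose females 0 of 5 and in low-dose females 0 of 5 members tested were under an unadjusted p of 0.05, beside 3.91% and 4.27% of all genes, and *Adipoq* had log2 fold changes of -2.19 (standard error 2.25) and 0.52 (standard error 2.29). Without library 50 the first of these was 3.34, and without library 15 the second was -4.37. In *Ahr*-/- males 1 of 7 was under 0.05 beside 5.12%. It was *Cidea*, at 8.61, 9.53 and 13.5 CPM against 3.75, 5.33 and 5.90 CPM in naïve males, without overlap, as for 11.0% of all genes (log2 fold change 1.05, standard error 0.32, unadjusted p = 0.00983, adjusted p = 0.821 in edgeR). In high-dose males 1 of 6 was under 0.05 beside 5.41%, *Plin1* with -1.98 (adjusted p = 0.907), and in low-dose males 0 of 7 beside 4.41%. *Adipoq* had log2 fold changes of 2.87, -1.68 and 1.58 in these 3 groups of males, with adjusted p from 0.821 to 0.941, and without the naïve library 49 the high-dose value was 0.20.

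In the female LA the members were higher in the mean of every group than in naïve mice. For *Ucp1* the log2 fold change was 3.54 in *Ahr*-/-, 4.93 in high-dose and 4.34 in low-dose females, with standard errors from 2.28 to 2.96 and adjusted p of 0.577, 0.604 and 0.384 in edgeR. For *Adipoq* it was 3.20, 3.36 and 2.43, with adjusted p of 0.427, 0.592 and 0.417. The 3 comparisons share the naïve libraries 19, 20 and 52, in which *Adipoq* stood at 1.81, 0.673 and 17.5 CPM, and without the *Ahr*-/- library 23 the value of *Ucp1* was -3.37.

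Among the comparisons with naïve mice, the LA of high-dose females gave the largest number of members under an unadjusted p of 0.05, 6 of 8 beside 8.42% of all genes, all with the same adjusted p of 0.592. *Cidea* was at 12.4, 13.9 and 43.2 CPM against 1.57, 2.27 and 8.04 CPM in naïve females, the single one of 8 members without overlap, beside 13.2% of all genes (log2 fold change 2.46, standard error 0.77). *Plin1* was at 8.40, 31.1 and 285 CPM against 0.359, 5.37 and 12.1 (4.08, standard error 1.51), and the 2 groups overlapped. The others were *Adipoq* (3.36), *Cfd* (3.57), *Lep* (3.98) and *Retn* (3.55), genes that move together across libraries, so that 6 is not a number of separate observations. With libraries 1 to 48 only, 2 against 2, *Cidea* passed (2.80, edgeR adjusted p = 0.0385) beside 0.44% of all genes. The summed thymus genes of library 64, the highest of this group, were at 512 CPM, and without 1 library in turn the log2 fold change of *Ucp1* ranged from 2.74 to 14.21. Without the naïve library 52 those left, 19 and 20, were at 0 counts of *Ucp1*, so that the value of that fit depends on the prior count.

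In *Ahr*-/- females of the LA 1 of 8 members was under 0.05 beside 13.7% of all genes, *Cfd* at 48.2, 114 and 862 CPM against 0.943, 14.9 and 31.0 (log2 fold change 4.48, adjusted p = 0.364). The groups did not overlap for *Cfd* and *Retn*, 2 of 8 members beside 16.3% of all genes. Libraries 23 and 24 of this group went against their label, and library 58, the one left without them, was at 48.2 CPM. Library 58 had the RA gene *Bmp10* at 512 CPM. With libraries 1 to 48 only, 2 against 2, *Lep* was called (6.06, edgeR adjusted p = 0.0115) beside 18.4% of all genes, but both *Ahr*-/- libraries left, 23 and 24, had *Myl4* under 100 CPM. In low-dose females 1 of 8 was under 0.05 beside 17.6%, *Cidea* at 2.52 (adjusted p = 0.251). In males, 0 of 7 were under 0.05 in *Ahr*-/- beside 3.52% of all genes, 0 of 7 in high-dose beside 11.4% and 0 of 8 in low-dose beside 1.6%. *Ucp1* had log2 fold changes of 4.44 in high-dose and 2.72 in low-dose males (adjusted p of 0.593 and 0.999), which were -0.80 without library 26 and -1.94 without library 30. *Adipoq* had -0.97, 1.59 and 0.75 in *Ahr*-/-, high-dose and low-dose males. Without 1 library each (18, 26 and 30) these were 2.35, -1.66 and -4.45.

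In the V few members passed the filter on low counts. *Dio2* was lower in all 3 groups of females than in the naïve ones, at 0.977 to 1.52 CPM in *Ahr*-/-, 0.571 to 1.15 in high-dose and 1.02 to 1.09 in low-dose libraries against 1.71, 1.83 and 4.99 CPM. The groups did not overlap for *Dio2* in any of the 3 comparisons, which share the naïve libraries, or for *Cidea* in that of *Ahr*-/- mice, beside 12.6%, 36.8% and 24.5% of all genes. The log2 fold changes were -1.18, -1.43 and -1.21 with adjusted p of 0.515, 0.0658 and 0.223 in edgeR. It was the single member under an unadjusted p of 0.05 in each of the 3, 1 of 4, 1 of 3 and 1 of 3 tested, beside 9.45%, 36.5% and 17.8% of all genes. The high-dose value passed 0.05 with 3 other settings (adjusted p from 0.0396 to 0.0479), beside 17% to 26.9% of all genes. The naïve library at 4.99 CPM, number 35, had *Myl4* over 100 CPM, and without 1 library in turn the high-dose log2 fold change ranged from -1.81 to -0.84. In males 0 of 5, 0 of 3 and 0 of 4 members were under 0.05 in *Ahr*-/-, high-dose and low-dose mice, beside 4.23%, 9.19% and 13.9% of all genes. Without the libraries against their label, 2 against 2, *Cidea* passed in high-dose males (log2 fold change 1.03, edgeR adjusted p = 0.0428) beside 15.9% of all genes.

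Males were also compared with females by label within each compartment, 12 libraries against 12 with a term for the 4 groups. In the RA, 0 of 9 members passed an adjusted p of 0.05 in edgeR (0.0129% of all genes did), and 9 of 9 were under 0.05 before adjustment, beside 3.86%, all lower in libraries labelled male. The members were chosen by their correlation with *Ucp1* in these libraries, so that 9 is not a number of separate observations. *Ucp1* was at 0 to 65.9 CPM with a median of 0.122 in males and at 0 to 610.3 with a median of 0.110 in females. The fitted difference for *Ucp1* was -5.20 on the log2 scale (standard error 1.90, edgeR adjusted p = 0.975), and that of *Elovl3* was -3.93 (standard error 0.90, adjusted p = 0.362, or 0.0206 with DESeq2, which called 0.107% of all genes). Of the 5 female-labelled libraries with *Ucp1* at 10 CPM or more, 2 read male, and without all libraries against their label *Ucp1* was at -3.46 and *Dio2* at -0.44 in place of -1.59.

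In the LA 0 of 8 members passed and 0 of 8 were under 0.05 before adjustment, beside 0.103% and 9.03% of all genes, and *Ucp1* had a log2 fold change of -1.36 (standard error 1.53). In the V 0 of 7 passed in edgeR (0.312% of all genes did), while 7 of 7 were under 0.05 before adjustment, beside 11.4%, all higher in libraries labelled male. As in the RA, these 7 are not separate observations. DESeq2 called *Elovl3* (log2 fold change 4.19, adjusted p = 0.00252) and *Cidea* (0.99, adjusted p = 0.0471), beside 1.87% of all genes. Without a filter on low counts edgeR called *Elovl3* (3.96, adjusted p = 0.0441), beside 0.339% of all genes. *Plin1* had a log2 fold change of 5.50 (standard error 1.41, adjusted p = 0.0979 in edgeR) and *Adipoq* of 4.80 (standard error 1.33, adjusted p = 0.133). The values of *Plin1* and *Adipoq* rested on the libraries labelled male that read female. Without the libraries against their label, 6 males against 11 females, *Dio2*, *Adipoq*, *Plin1* and *Cfd* were at -0.50, -1.45, -0.66 and -0.65.

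Genes of the same pathways outside the 9 were counted in the same tests. In the 12 atrial comparisons with naïve mice 0 of 142 tests of 15 other thermogenic genes passed with edgeR (7 higher and 6 lower before adjustment), and DESeq2 called 0. Of 306 tests of 26 genes of lipid droplets and lipid synthesis 0 passed. At an unadjusted p under 0.05 in edgeR 70 were higher and 6 lower, beside 3.53% higher and 3.55% lower of all tests in these comparisons. Comparisons share naïve groups, and 18 of the 26 genes had a rho of 0.5 or more with *Ucp1*, so that these 70 are not separate observations. DESeq2 called 10, all higher. Of these 10, 8 were in the LA of low-dose females, where DESeq2 called 5.88% of all genes. They were *Agpat2*, *Cebpa*, *Cebpb*, *Dgat2*, *Fabp4*, *Gpd1*, *Lipe* and *Pnpla2*. The others were *Slc7a10* in the RA of *Ahr*-/- females and *Lipe* in that of *Ahr*-/- males, where DESeq2 called 0.474% and 0.116% of all genes. In the LA of high-dose females 16 of the 26 genes were higher before adjustment, beside 8.42% of all genes in either direction, with a median log2 fold change of 2.25 over the list beside 0.06 over all genes. Receptors (103 tests), other adipokines (96 tests) and genes of beige fat or body position (21 tests) also gave 0 calls, with 5, 16 and 0 under an unadjusted p of 0.05, beside 7.08% of all tests, and 0, 2 and 0 calls by DESeq2. The 2 calls were *Agt* in the RA and *Rbp4* in the LA of *Ahr*-/- females, where DESeq2 called 0.474% and 0.702% of all genes.

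In the V of high-dose females, where 23.7% of all genes passed, genes of these lists passed in both directions. Of 10 thermogenic genes tested 3 fell, *Cox8b* (log2 fold change -1.28), *Cox7a1* (-0.54) and the fatty acid regulator *Ppara* (-0.39). Of 21 lipid genes 3 rose, *Cebpb* (1.03), the glycerol-3-phosphate dehydrogenase *Gpd1* (0.49) and the droplet protein of oxidative tissue *Plin5* (0.43). Of 8 receptors *Lepr* fell (-1.18) and the adiponectin-binding cadherin *Cdh13* rose (0.34). Of 6 other adipokines *Lcn2* (1.10) and *Rarres2* (0.74), which encodes chemerin, rose and *Nrg4* (-1.03) and *Nampt* (-0.57) fell. *Ucp1* was at 0 in all 3 high-dose libraries of this comparison, and the cells that these changes came from were not tested. The naïve library 35 had *Myl4* over 100 CPM, and the 3 atrial genes tested had a median log2 fold change of -2.43. Markers of other tissues passed in the same comparison. Smooth muscle *Myh11* (0.87) and *Tagln* (1.01), ventricular *Myl3* (1.26), *Myh7* (0.85) and *Irx4* (0.60), endothelial *Tie1* (0.70) and fibroblast *Col1a2* (0.74) rose. Fibroblast *Dcn* (-0.47), skeletal muscle *Myh1* (-1.39) and *Myh4* (-1.27) and *Xist* (-0.87) fell. The part of all these markers in the changes was not tested.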

How the data were processed

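Hearts were dissected and sequenced as 72 libraries. The deposited values are whole-number counts per gene, which the authors obtained from TopHat alignments to mm10 and did not normalize; the submitters' processing notes also name bcl2fastq, CASAVA 1.8 and DESeq. The annotation release, the use of strand and the treatment of reads with several alignments are not given in the sources used here. Of 24237 identifiers 24155 had a symbol in RefSeq. From these counts CPM was computed on the total of each library, and log2 values used a pseudocount of 0.25 CPM. Counts of all genes were tested with edgeR 4.0.16 (TMM scaling; low genes removed by filterByExpr at a count of 10 and a total of 15; quasi-likelihood F test, robust; Benjamini-Hochberg), in R 4.3.3; alternatives were DESeq2 1.42.0, other scalings and filters, a term for the library series, all 4 groups in 1 fit, and libraries left out. Positions came from GENCODE and promoters from RefSeq (GRCm38.p6). Figures were drawn with matplotlib 3.10.9. The script was tested on simulated data. The 9 genes and all lists were chosen with earlier results of these data known.

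Groups follow the sample labels, which name TCDD as treatment for every sample; naïve mice were those marked as controls, and the methods state that *Ahr*-/- mice were unexposed. The labels and the methods differ in age and in the days of gavage, and the methods were followed. A library went against its label where *Xist* and Y-linked genes read the other sex, or where *Myl4* was under 100 CPM in an atrium or over 100 CPM in ventricles. Genes named are the 9 members, those most like *Ucp1* by Spearman's rho, and list genes with an adjusted p under 0.05; genes described by their range over libraries came from the lists and were picked after their values were seen. Two-sided p-values over 3 libraries a group rest on the spread between libraries of 1 labelled group. Where a group holds libraries against their label, that spread can also hold differences of compartment or sex and is not that between mice alone.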

Additional observations from a re-analysis of the deposited data

How the results depend on the processing

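The number of members called in the 21 comparisons was 0 in each, stayed 0 in 253 alternatives and moved in 13. Calls appeared in the RA of *Ahr*-/- females, 7 without the libraries against their label and 5 with libraries 1 to 48, and from 0 to 4 with each library left out in turn, 4 being without the naïve library 50. With libraries 1 to 48 there was 1 in the LA of *Ahr*-/- females, 1 in that of high-dose females and 1 in the V of high-dose males, and without the libraries against their label also 1 in the last. In the V of high-dose females 1 appeared with scaling by library size, 1 without a filter and 1 with DESeq2. Between the sexes DESeq2 called 1 in the RA and 2 in the V, and no filter 1 in the V. All genes called in these fits were 0.107% to 26.9%. Log2 fold changes kept their sign and their side of 0.05 in 486 alternatives and changed sign in 27. They passed 0.05 in 14, of which 2 had changed sign. With a term for the library series *Ucp1* in the RA of *Ahr*-/- females was 5.53 and *Adipoq* in that of high-dose females 1.84. Without the libraries against their label *Ucp1* was 13.20 in the RA and -9.33 in the LA of *Ahr*-/- females (fits with 1 naïve and 1 *Ahr*-/- library, respectively, assumed to vary like the other arm), and *Dio2*, *Adipoq*, *Plin1* and *Cfd* between the sexes in the V were -0.50, -1.45, -0.66 and -0.65. With libraries 1 to 48 the last 4 were -0.39, -1.54, -0.76 and -1.07, *Ucp1* in the RA of *Ahr*-/- females 9.73, and *Adipoq* in the RA of high-dose females and males 3.85 and 0.73. With each library left out in turn, *Ucp1* ranged from -1.62 to 10.88 in the RA and from -3.37 to 12.69 in the LA of *Ahr*-/- females, and from -0.80 to 8.59 and -1.94 to 6.87 in the LA of high- and low-dose males. *Adipoq* ranged from -5.91 to 3.34 and -4.37 to 6.05 in the RA of high- and low-dose females (-0.06 and -0.07 without the naïve libraries 3 and 4), from -2.25 to 0.20 in the RA of high-dose males, and from -1.52 to 2.35, -1.66 to 4.89 and -4.45 to 4.09 in the LA of *Ahr*-/-, high-dose and low-dose males. The cause of these changes was not tested. Medians of levels and of ratios to *Adipoq* moved by less than 1 SD between libraries in all alternatives run on them (27 for levels, 48 for ratios, the latter chosen after seeing the data). That SD is wide because the values are skewed, so that large shifts stay under it and this is no sign of stability. The naïve median of *Ucp1* per *Adipoq*, for example, went from 1.40 to 0.468 without the libraries against their label. Spearman's rho of the members with *Ucp1* (Pearson's r in 1 alternative) moved out of the interval of its value over atrium-labelled libraries, by Fisher's z, in 33 alternatives and stayed in it in 103. It was 0.12 to 0.66 in libraries labelled V, 0.21 to 0.57 in those with *Myl4* under 100 CPM and 0.29 to 0.77 in libraries 1 to 48, and none of these alternatives put it below 0. No paired analysis was possible because the library numbers in the labels are unique and do not tie samples of different groups. Counts of 0 limit *Ucp1* only below 0.253 CPM, and the spread between 3 libraries limits every comparison.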

Other observations

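Lung genes summed to over 10 CPM in libraries 7, 15, 21, 23, 25, 53 and 65 and thymus genes to over 50 CPM in libraries 26 and 64, so that no library was high in both. *Adipoq* was at 10 CPM or more in all 9, from 10.1 to 187 CPM, while *Ucp1* ranged from 0 to 610.3 CPM. The 4 B cell genes summed to 0.428 to 61.8 CPM in the 15 libraries with 50 CPM or more of *Ucp1* and to 0.132 to 57.4 CPM in the 51 with *Ucp1* under 1 CPM. The genes of Schwann cells, which sheathe nerves, summed to 15.5 to 90.4 CPM and to 5.00 to 88.0 CPM in these classes. Hemoglobin genes summed to 527 to 20522 and to 610 to 30459 CPM in the same order.

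The RA-enriched gene *Bmp10* was at 100 CPM or more in 18 of the 47 libraries with *Myl4* at 100 CPM or more. Of the libraries with *Ucp1* at 50 CPM or more, it was at 447 CPM in library 7 (labelled RA) and at 690 and 1134 CPM in libraries 31 and 64 (labelled LA), and at 0.342 to 61.9 CPM in the other 12.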
